A study of Homo sapiens with 4 samples.

Results

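The genes examined here encode chemokines, interleukins and interleukin receptors, the signalling proteins with which epithelium calls in and instructs immune cells, and they were measured in MCF10A cells with and without a stable excess of the transcription factor HSF1. Members were all genes of the authors' summary table whose symbol starts with CXCL, CCL or IL followed by a number, without antisense genes and pseudogenes, which gave 127 symbols beside the 63856 genes of the count table. For 126 of them the symbol led to 1 gene of the count table, and CCL3L1 did not. Of the 126, 38 had 0 counts in all libraries, 19 had 1 to 9 counts in total, and 60 had enough counts to be tested. In HSF1-pLVX cells the agonists IL1A and IL1B rose 7.21-fold and 13.7-fold while IL1RN and IL1R2, which hold interleukin 1 in check, fell 6.97-fold and 30.0-fold, as ratios of mean normalized counts. The 5 members that encode receptors of the gp130 group rose while IL6 itself fell 9.79-fold. The chemokine genes moved in both directions. CCL20, CXCL1, CXCL8 and, from very few wild type counts, CCL2 were among those that rose. CXCL16 fell 2.03-fold, and CXCL2, CXCL3, CXCL10, CXCL11 and CCL28 were not called. Over all tested genes, 32.7% were called higher and 33.2% lower.

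MCF10A is a non-tumorigenic line of human breast epithelial cells, grown here in a medium with horse serum, insulin, hydrocortisone, EGF and cholera toxin. The compared variants were unmodified wild type cells (WT, 2 libraries) and cells transduced with a lentivirus that carries the HSF1 coding sequence in the pLVX vector (HSF1-pLVX, 2 libraries). The transduced cells were selected with puromycin and the wild type cells are given as unmodified, and no empty-vector library was analysed here, so transduction and selection cannot be told apart from the excess of HSF1. The study calls the paired libraries biological replicates without saying how far back the cultures were separate, so p-values measure only the spread between these samples. RNA was total RNA depleted of ribosomal RNA and came from whole cultures, in which fewer cells of a type and less RNA per cell cannot be told apart.

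The interleukin 1 family works through a balance. IL1A and IL1B bind the receptor IL1R1, which signals together with the accessory chain IL1RAP through MYD88 to NF-kappaB, whereas IL1RN occupies the receptor without signalling and IL1R2 is a decoy that binds the ligand but has no signalling domain. Interleukin 6 and most of its relatives use the shared chain IL6ST, also called gp130, and signal through JAK kinases and STAT factors. IL31RA, counted here with their receptors, pairs with OSMR instead. Chemokines guide migrating cells, the CXC chemokines with the ELR motif (CXCL1, CXCL2, CXCL3, CXCL5 and CXCL8) acting mainly on neutrophils and many CC chemokines on monocytes, dendritic cells and lymphocytes. HSF1 binds inverted repeats of GAA, the unit of the heat shock element.

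The sequences upstream of 5 members with large changes or high counts are shown so that matches to binding sites of HSF1, NF-kappaB and AP-1 can be read in their place. They come from RefSeq (GRCh38.p14), are written 5′ to 3′ on the strand of the gene and end at the last base before an annotated start. Capitals mark exact matches, on either strand, to TTCNNGAA or GAANNTTC (adjacent inverted GAA units), GGNNNTTCC (the core of the NF-kappaB site), TGANTCA (the AP-1 site) and TATAAA (the TATA box). The windows are chr2:112784494-112784743 on the minus strand for IL1A, chr2:112836780-112837029 on the minus strand for IL1B, chr2:113117721-113117970 on the plus strand for IL1RN, chr4:73740319-73740568 on the plus strand for CXCL8 and chr7:22726950-22727199 on the plus strand for IL6. IL1A has 2 and IL1RN has 3 annotated windows, of which 1 each is shown.
IL1A: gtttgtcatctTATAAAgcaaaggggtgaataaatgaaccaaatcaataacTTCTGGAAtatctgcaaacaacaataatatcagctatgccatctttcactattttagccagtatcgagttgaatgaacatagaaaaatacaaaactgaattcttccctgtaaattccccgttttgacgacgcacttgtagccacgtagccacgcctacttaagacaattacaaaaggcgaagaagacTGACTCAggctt
IL1B: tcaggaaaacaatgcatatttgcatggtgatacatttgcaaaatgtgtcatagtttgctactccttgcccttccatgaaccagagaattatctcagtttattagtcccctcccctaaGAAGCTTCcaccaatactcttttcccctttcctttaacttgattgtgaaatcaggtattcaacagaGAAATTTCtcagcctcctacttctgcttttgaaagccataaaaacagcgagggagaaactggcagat
IL1RN: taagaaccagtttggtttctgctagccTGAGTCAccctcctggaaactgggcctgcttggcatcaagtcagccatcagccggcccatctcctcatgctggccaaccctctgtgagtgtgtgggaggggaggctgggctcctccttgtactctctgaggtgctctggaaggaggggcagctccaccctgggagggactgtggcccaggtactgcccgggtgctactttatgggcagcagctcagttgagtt
CXCL8: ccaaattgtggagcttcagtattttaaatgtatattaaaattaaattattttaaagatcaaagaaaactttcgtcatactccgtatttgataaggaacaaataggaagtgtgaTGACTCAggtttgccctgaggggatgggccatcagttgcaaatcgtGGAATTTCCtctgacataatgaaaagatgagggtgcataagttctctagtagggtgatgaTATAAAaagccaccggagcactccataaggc
IL6: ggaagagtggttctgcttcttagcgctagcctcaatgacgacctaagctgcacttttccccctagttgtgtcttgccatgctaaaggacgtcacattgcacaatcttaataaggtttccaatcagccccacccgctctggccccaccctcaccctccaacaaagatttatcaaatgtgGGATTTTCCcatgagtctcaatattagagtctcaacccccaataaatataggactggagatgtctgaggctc
A match to TTCNNGAA lay in the IL1A window, starting 199 bases before the start, and matches to GAANNTTC began 133 and 67 bases before the start of IL1B. The CXCL8 window held an AP-1 match 137 bases, an NF-kappaB match 91 bases and a TATA box 31 bases before the start, and the IL6 window held an NF-kappaB match 72 bases before it. The IL1RN window shown held an AP-1 match alone. RefSeq windows of 250 bases were found for 52 of the 60 tested members, 81 windows in all, some of which overlap because they belong to 1 gene. Of these, 8.64% held TTCNNGAA and 6.17% held GAANNTTC, against 6.62% and 5.78% of all 35116 windows of this length. GGNNNTTCC was found in 33.3% of the members' windows and in 17.1% of all windows, and TGANTCA in 19.8% and 6.57%. The TATA box was in 14.8% of the members' windows and 10.7% of all. By direction, TGANTCA was in 10 of the 30 windows of members that rose, 3 of the 25 windows of members that fell and 3 of the 26 of the others, whereas GGNNNTTCC was in 8, 7 and 12 of them. The 10 windows belong to fewer genes (CCL24, CXCL14, CXCL8, IL15RA, IL1A and IL1RL1), so windows are not independent units. Of these genes, CCL24, CXCL14 and IL1RL1 passed the filter on low counts only through the HSF1-pLVX libraries. The contrast by direction was not tested. A match describes the letters and is no evidence of binding.

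The 4 libraries held between 18688109 and 24184285 counts. HSF1 itself, the check of the labels, stood at 200.4 and 189 CPM in the wild type and at 982 and 999 CPM in HSF1-pLVX cells, where CPM is the count set against the TMM-normalized size of its library, and its mean was 5.08-fold higher. Mitochondrial genes took from 7.54 to 8.48% of the wild type counts and from 9.84 to 11.0% of the HSF1-pLVX counts. The 12 mammary epithelial marker genes were all tested, with 8 lower and 3 higher. They summed to 19870 to 20350 CPM in wild type and 10110 to 10560 CPM in HSF1-pLVX cells. Among those lower, KRT17 fell from a mean of 7194 to 1220 CPM and KRT8 from 3165 to 335 CPM. Among those higher, KRT5 rose from 2113 to 4592 CPM and TP63 from 9.69 to 108 CPM. The 18 immune cell markers, of which 3 were tested (2 higher and 1 lower), summed to 23.25 and 27.75 CPM in the wild type libraries and to 66.24 and 89.8 CPM in the HSF1-pLVX libraries, most of it in the latter from the monocyte coreceptor CD14 with 1.17 and 0.538 against 58.6 and 83.2 CPM. PTPRC, CD3G and TYROBP, which define leukocytes, were at 0 in all 4 libraries. The 9 fibroblast markers summed to 199 to 227 and 48.92 to 59.86 CPM and the 6 endothelial markers to 2.1 to 3.14 and 13.6 to 14.7 CPM, in the same order. The fibroblast sums came mostly from FAP and the endothelial sums mostly from KDR. Of 3 fibroblast markers tested, FAP fell from a mean of 204 to 39.9 CPM, DCN rose from 0.107 to 4.06 CPM and COL1A1 was not called. KDR, the 1 endothelial marker tested, rose from 1.66 to 12.6 CPM. The part of these shifts in the results was not tested.

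Among the 60 tested members, 24 rose and 18 fell with the excess of HSF1 at a threshold of 0.05 on the adjusted p (edgeR quasi-likelihood test, Benjamini-Hochberg adjustment over 15830 genes). That is 70.0% of the members, and the share called over all tested genes was 65.9% (32.7% higher and 33.2% lower). A change of at least 2-fold was called for 20 members upwards and 11 downwards, or 51.7%, against 28.9% of all tested genes (14.9% up and 14.0% down). The variants did not overlap in CPM for 50 members (83.3%), and for 83.1% of all tested genes. In the median, tested members had a log2 fold change of 0.10 and all tested genes one of 0.02. All member genes together took 0.174 and 0.194% of the counts in wild type and 0.255 and 0.236% in HSF1-pLVX cells. The members passed a filter on low counts, so the 66 members left untested, none with more than 11 counts in a library, are not described by these shares. CCL2, CCL22, CCL24, CXCL14, CXCL17, IL1RL1, IL4I1 and IL36G passed it only through the HSF1-pLVX libraries. Members that passed only through the wild type libraries include IL1R2, IL36RN and IL6. For such members the filter itself favours the direction called, so the counts of 2-fold calls are no independent support.

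**Figure D1:**
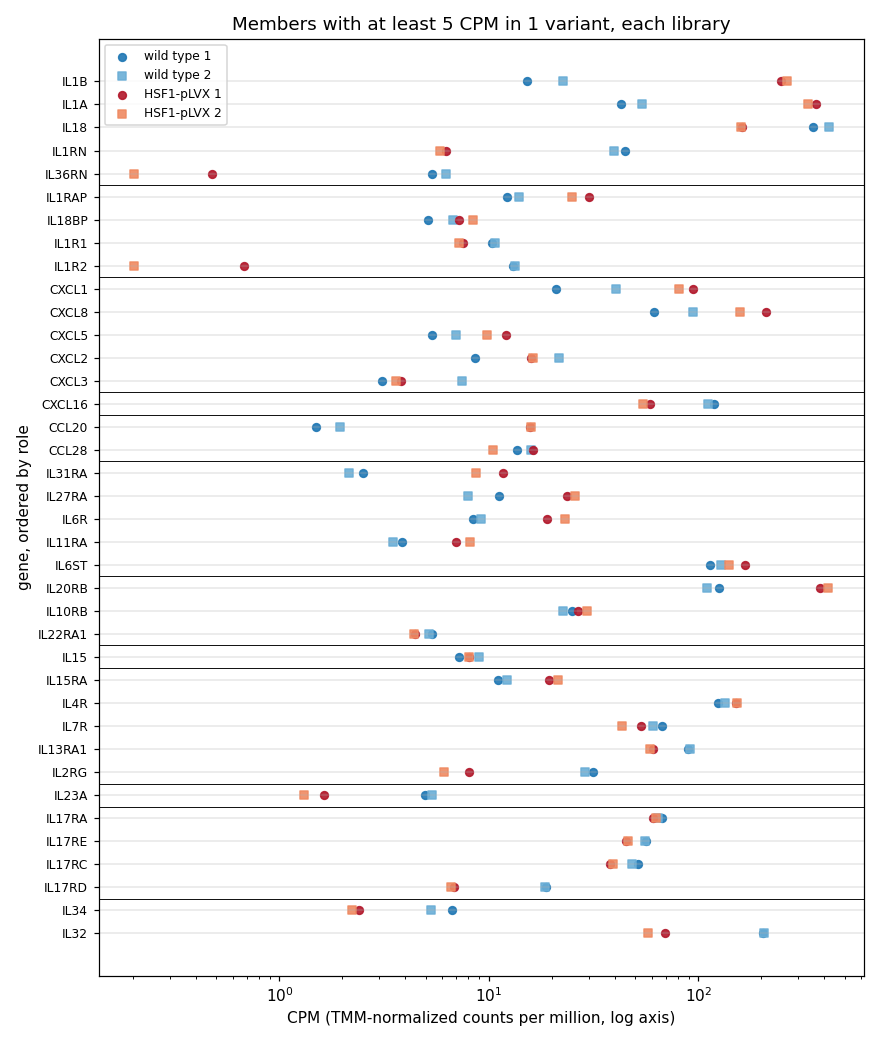
CPM (log axis) of the 38 members with a mean of at least 5 CPM in 1 variant, with 1 point per library and members ordered by role between the horizontal lines. The HSF1-pLVX points of IL1A and IL1B lie to the right of the wild type points, those of IL1RN, IL36RN and IL1R2 to the left, and for CXCL2 and CXCL3 the HSF1-pLVX points fall between the wild type points.

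The agonists IL1A and IL1B and their antagonist IL1RN moved in opposite directions, while IL18, another agonist of the family, fell. IL1A stood at 43.0 and 53.8 CPM in the wild type libraries and at 364 and 334 CPM in the HSF1-pLVX libraries, that is 48.4 ± 7.66 against 349 ± 21.1 CPM (SD, n = 2). This is a log2 fold change of 2.85 (SE 0.115, adjusted p = 7.62e-11). IL1B, which is made as a precursor that caspase-1 cuts, stood at 15.2 and 22.5 CPM against 249 and 267 CPM. Its log2 fold change of 3.77 (SE 0.142, adjusted p = 4.05e-11) was the highest among the members with at least 5 CPM in 1 variant. Both HSF1-pLVX libraries lay far above both wild type libraries for either gene. IL1RN, the receptor antagonist, went the other way, from 44.5 and 39.7 CPM to 6.25 and 5.84 CPM (log2 fold change -2.80, SE 0.116, adjusted p = 9.32e-11). Within a library, IL1A CPM over IL1RN CPM was 0.965 and 1.36 in wild type and 58.2 and 57.2 in HSF1-pLVX cells, and IL1B over IL1RN was 0.342 and 0.566 against 39.8 and 45.6. Per kilobase of exon, IL1A and IL1RN stood at 22.8 and 12.9 CPM per kb in wild type and at 164 and 1.86 CPM per kb in HSF1-pLVX cells.

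The interleukin 36 genes were lower in level. IL36RN, the antagonist of the interleukin 36 receptor, fell from 5.33 and 6.24 CPM to 0.478 and 0.201 CPM (log2 fold change -4.01, SE 0.332, adjusted p = 9.41e-08). The agonist IL36G was called higher at a log2 fold change of 2.12, but on 4 and 1 counts in wild type and 14 and 13 in HSF1-pLVX cells, and the call was lost with DESeq2, without the second wild type library (1.46) and without the second HSF1-pLVX library (2.02). IL18, an agonist with its own receptor, fell from 354 and 420.4 CPM to 162 and 161 CPM (log2 fold change -1.26, SE 0.101, adjusted p = 6.75e-08). It was the member with the most RNA per kilobase of exon in wild type cells. In all, the 6 tested ligands of the family, of 11 members, divided into 3 higher and 3 lower. Of the untested ligands, IL33, an alarmin of epithelial nuclei, had 1 and 0 counts in wild type and 4 and 0 in HSF1-pLVX cells. IL37, an anti-inflammatory member, had 8 and 4 counts against 1 and 1.

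The receptors of the family divided likewise. IL1R2, the decoy receptor, stood at 13.1 and 13.3 CPM in wild type and at 0.677 and 0.201 CPM in HSF1-pLVX cells, on 17 and 4 counts. Its log2 fold change of -4.81 (SE 0.280, adjusted p = 2.39e-09) was the lowest among the tested members, and ran from -5.98 to -4.26 when either HSF1-pLVX library was left out. The signalling receptor IL1R1 changed little by comparison, from 10.4 and 10.7 CPM to 7.57 and 7.20 CPM (log2 fold change -0.51, SE 0.138, adjusted p = 0.00493), and was not called without the second HSF1-pLVX library (-0.46, adjusted p = 0.0541). The accessory chain IL1RAP rose from 12.2 and 13.9 CPM to 30.0 and 24.9 CPM (log2 fold change 1.07, SE 0.122, adjusted p = 2.54e-06). The ratio of IL1RAP to IL1R2 was 0.939 and 1.05 in wild type libraries and 44.3 and 124 in HSF1-pLVX libraries. IL1RL1, the receptor of interleukin 33, rose on few counts, 3 and 4 against 40 and 32 (log2 fold change 3.05, adjusted p = 2.01e-05). It shares 95 exon bases on the same strand with IL18R1, which was not called (-0.11, 95% interval -0.85 to 0.64). IL1RL2, the interleukin 36 receptor, had a log2 fold change of -0.37 (interval -0.80 to 0.05), and IL18BP, a soluble trap for interleukin 18, one of 0.39 (0.01 to 0.77, adjusted p = 0.0684). IL18BP shares 675 exon bases with NUMA1 on the opposite strand, and the strand setting of the counting is not stated. IL18BP was called higher with the replicate number as a block and without the second wild type library (0.59).

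**Figure D2:**
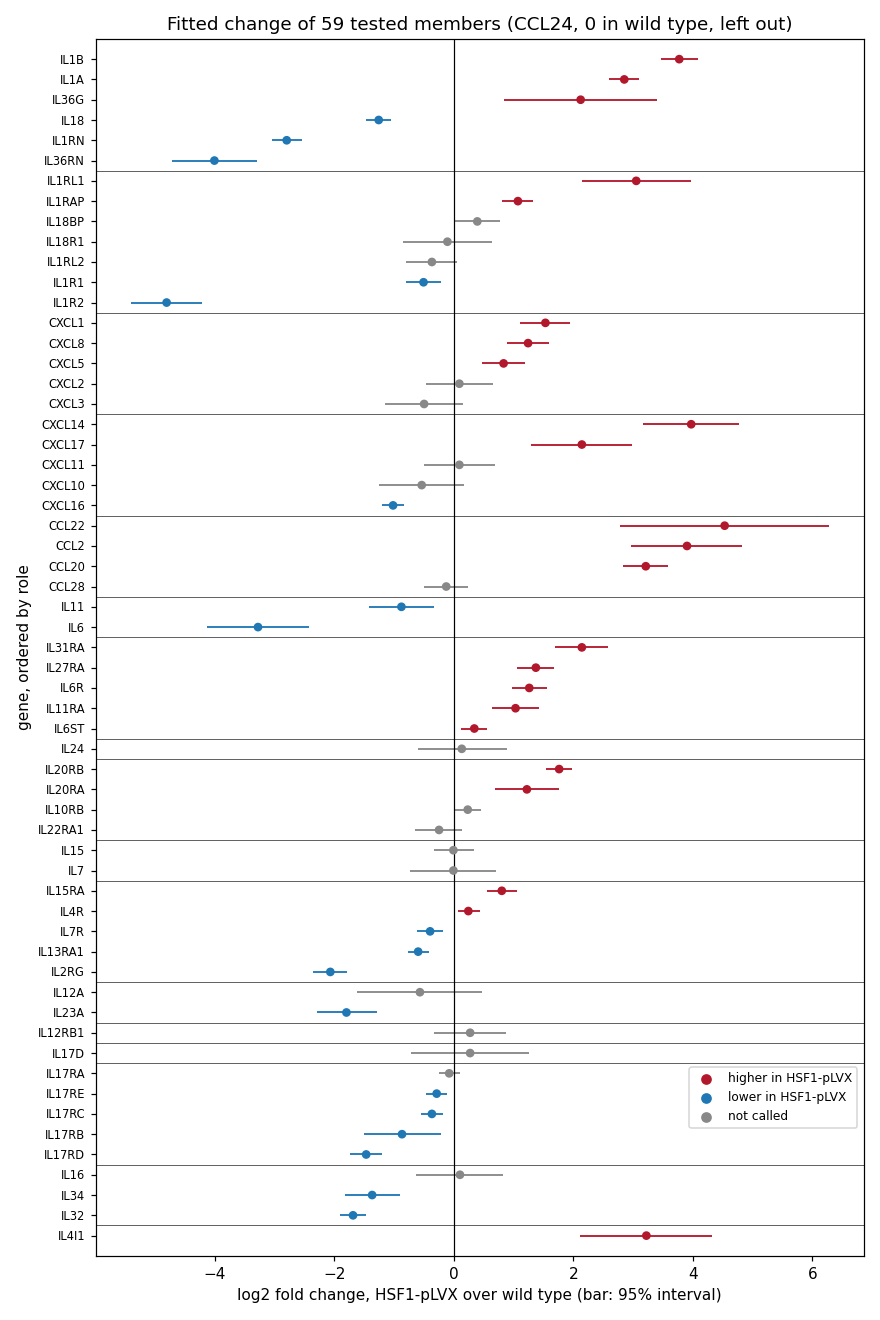
Log2 fold change of HSF1-pLVX over wild type cells for 59 tested members with the 95% interval of the edgeR fit, ordered by role between the horizontal lines and coloured by call. CCL24 is left out because it had 0 counts in wild type cells; the 5 gp130 receptors lie to the right of 0, and the 5 IL-17 receptors lie to the left of it, IL17RA with an interval that includes 0.

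These genes are neighbours on chromosome 2. IL1A, IL1B, IL36G, IL36RN and IL1RN lie within a stretch of 360.1 kb, and the receptors IL1R2, IL1R1, IL1RL2, IL1RL1 and IL18R1 within another of 460.7 kb. In the ligand stretch the members that rose, IL1A, IL1B and IL36G, begin within its first 199.3 kb, and IL36RN and IL1RN, which fell, begin 284.7 kb or more from its first base. In the receptor stretch IL1R2 fell and IL1RL1, whose first base lies 319.7 kb further on, rose.

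**Figure D3:**
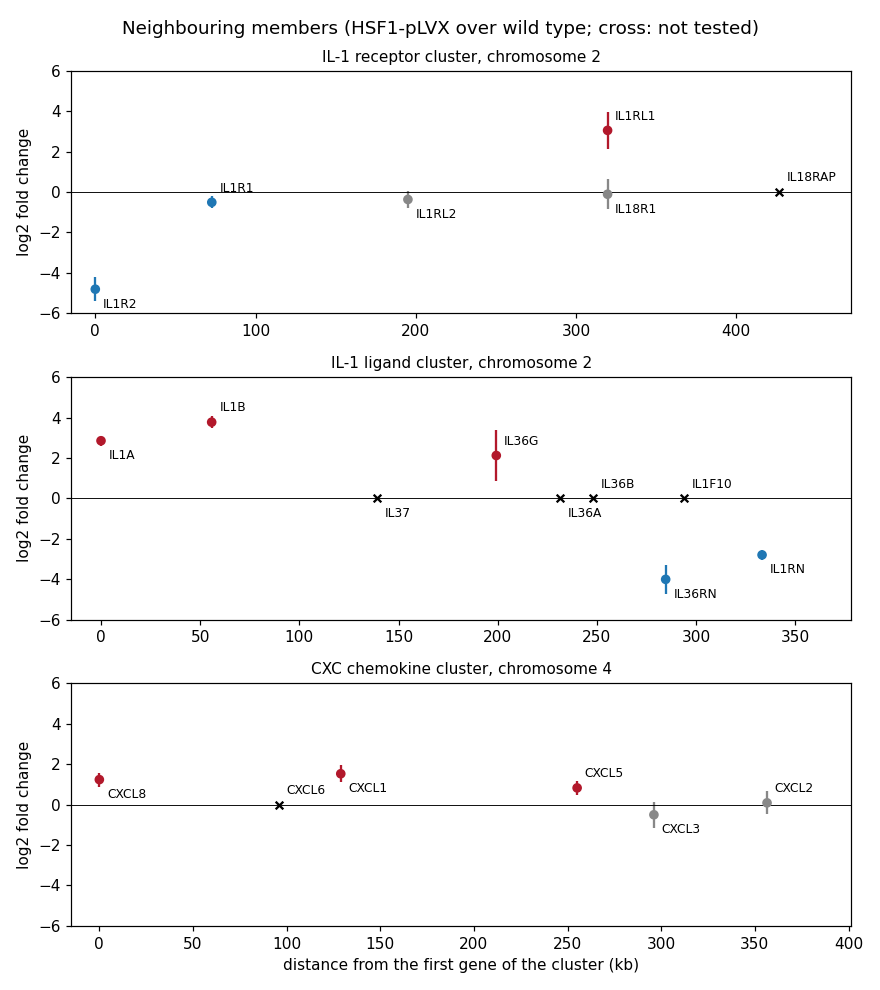
Log2 fold change (points, with 95% intervals) against the distance in kb from the first gene, for the IL-1 receptor and IL-1 ligand stretches of chromosome 2 and the CXC chemokine stretch of chromosome 4, with crosses at 0 for members that were not tested. Changes in both directions stand within the stretches of chromosome 2, and CXCL8, CXCL1 and CXCL5 lie above 0 while the intervals of CXCL3 and CXCL2 include it.

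The neutrophil-attracting CXC chemokines did not move as a block. CXCL8 rose from 61.9 and 94.6 CPM to 211 and 159 CPM (log2 fold change 1.24, SE 0.163, adjusted p = 1.10e-05), and CXCL1 from 20.8 and 40.3 CPM to 94.8 and 81.3 CPM (log2 fold change 1.53, SE 0.194, adjusted p = 7.68e-06). CXCL5 rose by less, 0.83 on the log2 scale, from a mean of 6.16 to one of 10.9 CPM (adjusted p = 5.37e-04). Without the first wild type library the change of CXCL1 was 1.14 and that of CXCL8 was 0.98, and without the second they were 2.06 and 1.56. CXCL2 was not called, with 8.63 and 21.6 CPM in wild type and 16.0 and 16.3 CPM in HSF1-pLVX cells (log2 fold change 0.09, interval -0.47 to 0.66, adjusted p = 0.768). CXCL3 was not called either, with 3.09 and 7.48 against 3.82 and 3.62 CPM (log2 fold change -0.50, interval -1.16 to 0.15). For both genes the HSF1-pLVX libraries lay between the wild type libraries, whose CPM differed 2.50-fold and 2.42-fold. Without the first wild type library CXCL2 was called lower (-0.41, adjusted p = 0.00608), and without the second it was called higher (0.88), so that its direction rests on 1 library. CXCL3 was called lower without the first (-0.99, adjusted p = 6.82e-05) and stood at 0.25 without the second. CXCL1, CXCL2 and CXCL3 are paralogs of near-identical sequence, and how reads shared among them were assigned is not stated, which leaves the division among the 3 uncertain. The 3 that rose and the 2 that did not are spread over 358.8 kb of chromosome 4, with CXCL6, also in that stretch, at 0 counts in all libraries.

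**Figure D4:**
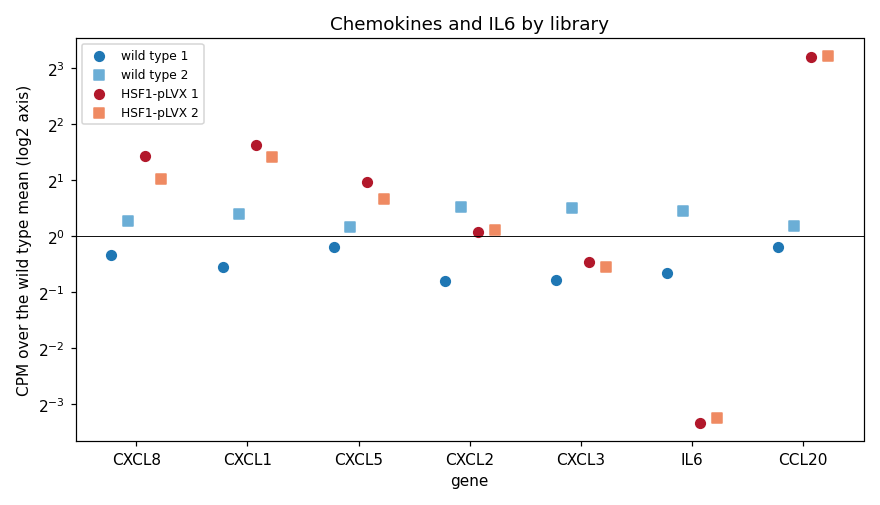
CPM of 5 CXC chemokine genes, IL6 and CCL20 in each library over the wild type mean of the same gene (log2 axis). The second wild type library lies above the first for all 7 genes, the HSF1-pLVX points of CXCL2 and CXCL3 lie between the wild type points, and those of IL6 lie below and of CCL20 above them.

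Of 27 CC chemokines 5 were tested, and 3 of these, CCL2, CCL22 and CCL24, passed the filter on low counts only through the HSF1-pLVX libraries, so that the number called higher says nothing about the group. CCL20, which attracts dendritic cells and lymphocytes that carry CCR6, stood at 1.49 and 1.94 CPM in wild type and at 15.8 and 15.9 CPM in HSF1-pLVX cells (log2 fold change 3.21, SE 0.175, adjusted p = 1.26e-09). CCL2, a monocyte attractant, had 2 and 4 counts in wild type and 68 and 44 in HSF1-pLVX cells, or 0.107 and 0.215 against 2.71 and 2.21 CPM (log2 fold change 3.90, SE 0.430, adjusted p = 1.88e-06). CCL22 was seen with 0 and 1 counts against 23 and 11, a ratio of summed CPM of 28.2 with an interval from 4.74 to 1150 that covers counting error only. CCL24 had 16 counts in each HSF1-pLVX library and 0 in either wild type library, at least 4.49-fold higher at a floor of 3 counts per library. CCL28, a chemokine of mucosal epithelium, was not called (14.8 ± 1.62 against 13.4 ± 4.14 CPM, log2 fold change -0.13, interval -0.50 to 0.23), but was called lower without the first HSF1-pLVX library (-0.50). The other 22 CC chemokines were not tested.

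Of the CXC chemokines without the ELR motif, 5 of 8 were tested. CXCL16, a membrane-bound chemokine that binds CXCR6, was the most abundant of them and fell from 119 and 111 CPM to 59.0 and 54.3 CPM (log2 fold change -1.02, SE 0.087, adjusted p = 1.32e-07). CXCL14 rose from a mean of 0.24 to 3.87 CPM (log2 fold change 3.97, adjusted p = 4.02e-07) and CXCL17, a mucosal chemokine, from 0.401 to 1.77 CPM (2.14, adjusted p = 2.59e-04). The interferon-induced CXCL10 and CXCL11 were not called, at means of 1.71 and 1.53 CPM in wild type and 1.17 and 1.62 CPM in HSF1-pLVX cells, though CXCL10 was called lower without the second wild type library (-0.91). CXCL14 (6 and 3 counts in wild type) and CXCL17 (10 and 5) passed the filter on low counts through the HSF1-pLVX libraries.

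In the interleukin 6 group both tested cytokines, IL6 and IL11, fell and the 5 receptors among the members rose. IL6 stood at 3.04 and 6.57 CPM in wild type and at 0.478 and 0.503 CPM in HSF1-pLVX cells, on 57 and 122 against 12 and 10 counts (log2 fold change -3.28, SE 0.402, adjusted p = 5.39e-06). The wild type libraries differed 2.16-fold, and either lay above both HSF1-pLVX libraries. The change of IL6 was -2.64 without the second wild type library and -3.72 without the first. IL6 passed the filter on low counts only through the wild type libraries, so the filter itself favours a fall. IL11 fell from a mean of 3.03 to 1.65 CPM (-0.88, adjusted p = 0.00720), a call that was lost with DESeq2 and without the second HSF1-pLVX library (-0.88, adjusted p = 0.0531). IL6R, the receptor of interleukin 6, rose from 8.36 and 9.15 CPM to 18.9 and 23.2 CPM (log2 fold change 1.26, SE 0.134, adjusted p = 1.30e-06). The shared chain IL6ST, the most abundant receptor of the group, rose little, from 114 and 128 CPM to 167 and 140.1 CPM (log2 fold change 0.34, SE 0.102, adjusted p = 0.00874), and was not called without the first HSF1-pLVX library (0.21). IL31RA, which pairs with OSMR to bind interleukin 31, rose from 2.50 and 2.15 CPM to 11.8 and 8.66 CPM (log2 fold change 2.14, adjusted p = 4.92e-07). IL27RA rose from 11.1 and 7.97 CPM to 23.6 and 25.8 CPM (1.37, adjusted p = 9.56e-07). IL11RA rose from 3.84 and 3.50 CPM to 6.97 and 8.10 CPM (1.03, adjusted p = 1.82e-04), and it shares 334 exon bases with GALT on the same strand. The 5 receptors had a median log2 fold change of 1.26, beside 0.02 for all tested genes, and did not overlap between the variants, as 83.1% of all tested genes did not. LIFR, a receptor that also signals with IL6ST but whose symbol lies outside the rule, fell (-0.74, adjusted p = 0.0196, 2.87 against 1.71 CPM), and is named here after its value was seen.

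The receptors of the interleukin 10 family divided into 2 that rose and 2 that were not called. IL20RB, a chain of the receptors for interleukins 19, 20 and 24 in skin and other epithelia, rose from 126 and 110.2 CPM to 381 and 419 CPM (log2 fold change 1.76, SE 0.101, adjusted p = 2.17e-09). It was the most abundant receptor among the members in HSF1-pLVX cells. Its partner IL20RA rose from a mean of 1.85 to 4.32 CPM (1.22, adjusted p = 6.39e-04). IL10RB (0.23, interval 0.01 to 0.45, adjusted p = 0.0616) and IL22RA1 (-0.25, interval -0.65 to 0.14) were not called, the former being called higher without the first wild type library (0.32). Among the ligands, IL24 was the one tested, at 0.746 and 0.915 CPM against 0.916 and 0.906 CPM (0.13, interval -0.61 to 0.88). IL20 was counted 2 and 0 times in wild type and 9 and 4 times in HSF1-pLVX cells, too few to be tested.

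Receptors of the short-chain cytokines moved in both directions. IL2RG, the common gamma chain shared by the receptors of interleukins 2, 4, 7, 9, 15 and 21, fell from 31.4 and 28.7 CPM to 8.05 and 6.09 CPM (log2 fold change -2.07, SE 0.133, adjusted p = 6.71e-09). IL13RA1, which forms with IL4R a receptor that needs no gamma chain, fell from a mean of 90.2 to 59.7 CPM (-0.60, adjusted p = 1.60e-05). IL7R fell from 63.9 to 48.3 CPM (-0.40, adjusted p = 0.00299), a call that was lost without the second HSF1-pLVX library (-0.26). IL15RA, which presents interleukin 15 to neighbouring cells, rose from 11.7 to 20.4 CPM (0.80, adjusted p = 3.39e-05). IL4R was called at 0.24 (adjusted p = 0.0240) and lost the call without any filter on low counts and in 3 of the 4 fits that leave out a library, at 0.20 without the first wild type library and 0.25 without either HSF1-pLVX library. The ligands IL15 (-0.01, interval -0.34 to 0.33) and IL7 (-0.01, interval -0.73 to 0.71) were not called.

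Of the 5 tested receptors for interleukin 17, a cytokine of barrier surfaces, 4 fell, 3 of them by less than 2-fold, beside 33.2% of all tested genes called lower. IL17RD, known also as an inhibitor of FGF signalling, fell from 18.9 and 18.5 CPM to 6.85 and 6.59 CPM (log2 fold change -1.47, SE 0.124, adjusted p = 1.15e-07). IL17RC, IL17RE and IL17RB fell by 0.37, 0.29 and 0.87 on the log2 scale (adjusted p = 0.00166, 0.00634 and 0.0197), and IL17RB was not called with DESeq2. Without either HSF1-pLVX library IL17RE was not called (-0.27 and -0.30), and IL17RB was not called without the first wild type library (-0.60) or the second HSF1-pLVX library (-0.64). IL17RA, the chain common to the group, was not called (65.7 ± 1.98 against 62.2 ± 1.44 CPM, log2 fold change -0.08, interval -0.25 to 0.10). The ligand IL17D was near 1 CPM or below in all libraries and was not called (0.27, interval -0.72 to 1.26), and 39.0% of its exon bases are shared with a noncoding gene on the opposite strand. IL23A, the subunit particular to interleukin 23, fell from 4.95 and 5.38 CPM to 1.63 and 1.31 CPM (log2 fold change -1.80, SE 0.236, adjusted p = 1.10e-05). IL12A (-0.57, interval -1.62 to 0.47) and IL12RB1 (0.27, interval -0.34 to 0.87) were not called.

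Among the remaining members, IL32, a cytokine of epithelial and lymphoid cells outside the known families, fell from 204 and 205 CPM to 69.2 and 57.8 CPM (log2 fold change -1.69, SE 0.099, adjusted p = 2.67e-09). IL34, a ligand of CSF1R, fell from 6.66 and 5.27 CPM to 2.39 and 2.21 CPM (-1.37, SE 0.216, adjusted p = 6.42e-05). IL16 was not called (0.10, interval -0.63 to 0.82) and shares 36.0% of its exon bases with STARD5 on the opposite strand. IL4I1, an amino acid oxidase that the symbol rule takes in although it is neither cytokine nor receptor, rose on 2 and 2 against 26 and 21 counts (3.22, adjusted p = 7.21e-05), and 13.1% of its exon bases are shared with NUP62.

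The order of the members by RNA level, in CPM per kilobase of exon, changed between the variants. In wild type cells IL18 led at 147 CPM per kb, followed by IL32 at 63.8, IL20RB at 47.8, CXCL16 at 41.2 and CXCL8 at 34.4. In HSF1-pLVX cells IL1A at 164 and IL20RB at 162 CPM per kb led, followed by IL1B at 83.3, CXCL8 at 81.2, CXCL1 at 67.9 and IL18 at 61.4. IL1B moved from rank 18 to rank 3 of the 60 tested members and IL1RN from rank 11 to rank 28.

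Other cytokine genes, whose symbols the rule does not take in, were read from a list of 22, of which 9 were tested, 3 higher and 4 lower. CSF3, the granulocyte growth factor, rose from 0.32 and 0.646 CPM to 16.8 and 14.9 CPM (log2 fold change 5.02, SE 0.241, adjusted p = 3.69e-10). CSF1, the macrophage growth factor, rose from a mean of 22.4 to 104 CPM (2.22), and EBI3, a subunit of interleukin 27, from 1.42 to 13.5 CPM (3.24). LIF and CLCF1, which signal through IL6ST as interleukin 6 does, fell from 327 to 55.2 CPM (-2.56) and from 49.6 to 13.1 CPM (-1.92). CSF1R, the receptor of CSF1 and interleukin 34 and here a marker of myeloid cells, fell from 23.5 to 4.36 CPM (-2.42). Of 11 receptor chains outside the rule, 8 were tested, 4 higher and 4 lower, among them OSMR (0.38), LTBR (0.45) and TNFRSF1A (0.34) upwards and IFNLR1 (-1.75) and SIGIRR (-0.81), an inhibitory member of the interleukin 1 receptor family, downwards. Of 23 chemokine receptors 6 were tested, all below 5 CPM. CXCR6, CCR3, ACKR2, ACKR3 and CCRL2 were lower and ACKR1 was higher, the latter on 0 and 1 against 60 and 63 counts. CXCR6, CCR3, ACKR2 and CCRL2 passed the filter on low counts only through the wild type libraries. ACKR1, like CSF3, passed it only through the HSF1-pLVX libraries. For these genes the filter itself favours the direction called, so the number lower says nothing about the group. Over all tested genes, 32.7% were called higher and 33.2% lower.

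The signalling genes downstream moved in both directions. Of 13 genes of interleukin 1 receptor signalling 12 were tested, 4 higher and 5 lower, with a median log2 fold change of -0.07. MYD88, the adaptor of the receptor, fell from 168 and 161 CPM to 39.7 and 36.9 CPM (-2.10, SE 0.089, adjusted p = 1.13e-10), TRAF6 fell by 1.10 on the log2 scale, and the kinase gene IRAK2 rose from 32.8 and 33.6 CPM to 86.3 and 90.5 CPM (1.41). CASP1 rose by 0.33. Of 13 NF-kappaB factors and inhibitors 12 were tested, 5 higher and 6 lower and none by 2-fold (median -0.23), with NFKBIA (0.75) and NFKB1 (0.74) among those that rose and NFKBIE (-0.73) and RELA (-0.44) among those that fell. Of 16 listed NF-kappaB target genes 14 were tested, 8 higher and 5 lower (median 0.38). TNFAIP2 (2.38), CEBPD (2.29), C3 (1.59) and BIRC3 (1.24) rose, and PTGS2, the inducible cyclooxygenase, fell from 324 to 67.2 CPM (-2.26). CFLAR (-0.66), TNIP1 (-0.65) and ICAM1 (-0.53) also fell. Of 18 JAK, STAT and SOCS genes, all tested, 3 were higher and 10 lower (median -0.28), with STAT4 (2.68) among those that rose and STAT2 (-0.60) and JAK2 (-0.67) among those that fell. These shares stand beside the 32.7% and 33.2% of all tested genes called in each direction.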

How the data were processed

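RNA-seq libraries of MCF10A cells, 2 of each variant, were grouped by their labels. The deposited counts are raw reads or read pairs of each gene. To make them, the authors aligned their paired-end reads with HISAT2 2.0.5 (hg38), used SAMtools 1.13 on the alignments and counted with featureCounts 1.6.5 on GENCODE release 26. Strand, overlap and multi-mapping settings are not given in the sources used here. The deposited table also gives other columns, of which the exon length was used for CPM per kb. A further deposited table, normalized by the authors with DESeq2 1.32.0, has values on a log2-like scale and was used for member symbols, for the study's ratio rule and as an alternative. Symbols were joined to identifiers through GENCODE release 44 and RefSeq synonyms, and the counts of all 126 matched members gave their deposited values. Coordinates of genes are those of the count table. Intervals of log2 fold changes are 95% intervals of the edgeR fit and include the spread between libraries. The interval of the CCL22 ratio and the floor for CCL24 cover counting error only.

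Tests across genes used the counts and edgeR 4.0.16 (R 4.3.3, TMM, filterByExpr with a minimum count of 10, quasi-likelihood test, Benjamini-Hochberg adjustment over 15830 genes, called at 0.05). The common biological coefficient of variation was 0.0738. On simulated counts of 15422 genes the test recovered 83% of the 2-fold and 99.7% of the 4-fold changes, and 4.85% of its calls were false. The simulation changed only a small set of genes, evenly up and down, at a fixed dispersion. In the data 65.9% of the tested genes were called, so these shares do not give the error rate of the calls here. Each tested member is named. Values in every library are given for members called at least 2-fold with at least 5 CPM in the higher variant and for a fixed list of well-known members, and from each other list up to 4 called genes per direction with at least 5 CPM could be named. The members, lists and roles were chosen with earlier results of these data known. Alternatives were other scalings, filters, DESeq2 1.42.0, replicate blocks, leaving out each library and the deposited normalized values.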

Additional observations from a re-analysis of the deposited data

How the results depend on the processing

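Of the 60 tested members, all 60 kept their call with DESeq2's size factors and with a filter of at least 10 counts in every library of a variant, 59 with library size alone (IL10RB was then called), 58 without a filter (CXCL3 was then called and IL4R was not) and 57 with DESeq2's Wald test (IL36G, IL17RB and IL11 were not called). Leaving out each library gave 21 to 25 members higher and 13 to 19 lower, 18 of them at least 2-fold higher each time and 10 to 12 at least 2-fold lower, and 3783 to 4923 genes higher and 3846 to 4962 lower over all genes. CXCL2 reversed without WT replicate 1, at -0.41, and was called higher without WT replicate 2, at 0.88. IL36G lost its call without WT 2 or HSF1-pLVX 2, IL1R1, IL11 and IL7R without HSF1-pLVX 2, IL6ST without HSF1-pLVX 1, IL17RE without either HSF1-pLVX library, IL17RB without WT 1 or HSF1-pLVX 2, and IL4R without WT 1 or either HSF1-pLVX library. CXCL3 and IL10RB (without WT 1), IL18BP and CXCL10 (without WT 2) and CCL28 (without HSF1-pLVX 1) gained one. DESeq2's test called 4129 genes higher and 4540 lower. On the deposited log2-like values, the difference of means moved by more than the replicate SD for 22 members, and no called member changed direction.

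The labels and methods do not say that a replicate number marks a shared culture, and same-numbered deviations from the variant means correlated at 0.000143 over all tested genes and at -0.113 over 9672 genes above 8 CPM, so the numbers were not taken as a pairing. With the replicate number as a block, 25 members were higher and 18 lower (5138 and 5171 of all genes), the added call being IL18BP. A crossed pairing, added after seeing the data, called 26 members higher and 18 lower.

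In the other lists, chemokine receptors gave 2 higher without a filter and 3 lower with DESeq2, and 3 to 6 lower when a library was left out. Receptor chains gave 2 lower with DESeq2 and 2 to 4 with a library left out. JAK, STAT and SOCS genes gave 5 to 9 lower with a library left out. Fibroblast markers and endothelial markers each gave 2 higher without a filter and 1 to 2 with a library left out. The cause of these shifts was not tested. With 2 libraries a variant, members below about 1 CPM rest on few counts, and 66 members were not tested at this depth.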

Other observations

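The study's methods ask that both replicates change more than 2-fold. By that rule, on the deposited normalized values, 13 members passed upwards and 12 downwards. All 13 and 11 of the 12 were also called at least 2-fold by edgeR. The other, IL2RB, had 9 and 5 counts against 1 and 0 and was not tested. Of the 20 members called at least 2-fold higher, 7 did not pass the rule, namely CXCL1, CXCL8, IL11RA, IL1RAP, IL20RA, IL27RA and IL36G.

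The wild type libraries differed at least 2-fold in 23 of the 10679 tested genes with a mean of at least 5 CPM (0.215%), and 18 of these were higher in the second. CXCL2 was among the 18, at 2.50-fold, with the immediate early genes FOSB (72.8 and 268 CPM, 3.68-fold), EGR1 (44.8 and 127 CPM, 2.84-fold) and FOS (72.3 and 176 CPM, 2.44-fold), with NFKBIZ (25.2 and 54.0 CPM, 2.14-fold), a regulator of NF-kappaB, and with CSF3 (2.02-fold). The difference of CSF3 rests on 6 and 12 counts, and it reached a mean of 5 CPM only through the HSF1-pLVX libraries. These genes were picked after their values were seen. Members below that level of expression or of difference included CXCL3 (2.42-fold), IL6 (2.16-fold), CCL2 (2.02-fold), CXCL1 (1.94-fold), CXCL8 (1.53-fold) and IL1B (1.48-fold) with higher CPM in the second wild type library, and CXCL14 and CXCL17 (0.505-fold), CXCL10 (0.567-fold), IL27RA (0.716-fold), IL17RB (0.719-fold) and, on few counts, IL36G (0.253-fold) with lower CPM there. The HSF1-pLVX libraries differed at least 2-fold in 37 genes of that level (0.346%).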
